A study of Oryctolagus cuniculus with 34 samples.

Results

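The comparison described here set rabbit supraspinatus muscles labelled as treated by repair only against muscles labelled as injured only, both at the short term. It used every library whose title names one of these groups at that term: 5 repair only libraries and 4 injury only libraries, 9 of the 34 in the series, each a total RNA library of Oryctolagus cuniculus muscle. The other libraries of the series came from muscle treated with a matrix gel at the short term, and from repair only, gel treated and uninjured muscle at a long term. The labels give no strain, age, sex or number of days for either group, do not describe the injury or the repair, and leave unsaid whether each library is from its own animal. The p-values below therefore measure the spread between these libraries, which may be technical in part.

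The supraspinatus is a muscle of the rotator cuff that lifts the arm or foreleg and stabilises the shoulder through its tendon. When such a muscle is detached or unloaded, its fibres lose mass and contractile protein, and fibroblasts and fibro-adipogenic progenitors between the fibres can lay down collagen or fat. Fibres that lose contact with their nerve switch on acetylcholine receptor subunits and other genes outside the synapse, macrophages clear damaged fibres, and satellite cells supply new myonuclei. Slow fibres burn fat and sugar in mitochondria and are used for posture, whereas fast fibres rely more on glycolysis. In whole muscle, fewer cells of a type and less RNA per cell cannot be told apart.

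Total counts of the 9 libraries ran from 26904529 to 32313295, and 13927 to 15204 genes had at least 1 read. Levels are given as CPM, the counts of a gene scaled to a common library total with TMM factors for composition, in the order of repair replicates 1 to 5 and then injury replicates 1 to 4. The skeletal muscle identity genes were present throughout: the 12 genes, among them the actin ACTA1 and the creatine kinase CKM, summed to between 39600 and 183000 CPM in the repair libraries and between 76900 and 236000 CPM in the injury libraries. Differences are fitted log2 values, repair minus injury, with the standard error (SE) of the fit.

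One library of each group lay nearer to the other group than to its own. Over all genes tested, repair replicate 4 was at a root mean square distance of 1.33 log2 units from the mean of the other repair libraries and 0.74 from the mean of the injury libraries. For injury replicate 3 the distances were 1.16 to its own group and 0.77 to the repair group. Each of the other 7 libraries was closer to its own group. On the first principal component, which held 58.0% of the variance, repair replicates 1, 2, 3 and 5 scored 81.5, 40.3, 19.3 and 102.7 and injury replicate 3 scored 41.2, while repair replicate 4 scored -82.6 beside -77.7, -78.5 and -46.2 for injury replicates 1, 2 and 4. The cause was not tested. Results are given with all 9 libraries and again without this pair. The pair was left out because of where it lies on the same values, so the second set describes the remaining 7 libraries and supports nothing.

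**Figure D1:**
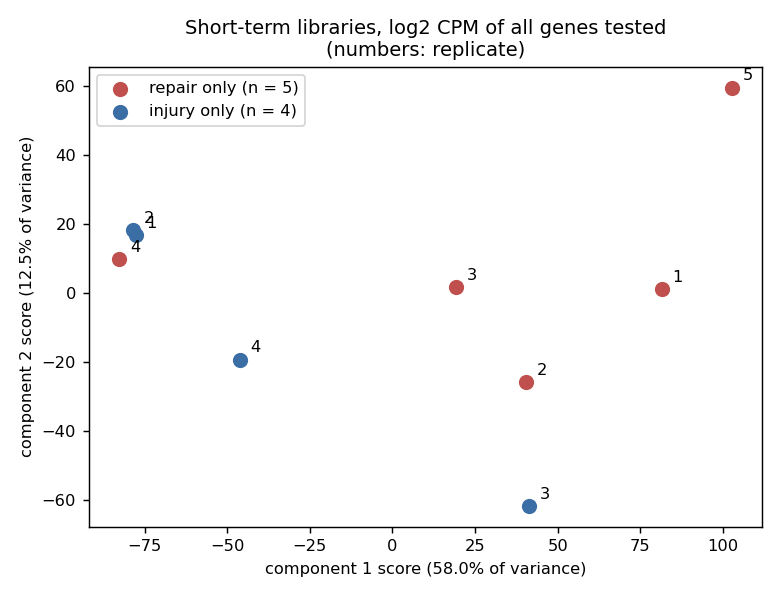
Scores of the 9 short-term libraries on the first and second principal components of log2 CPM (axes, with the share of variance), red for repair only and blue for injury only, numbered by replicate. Repair replicate 4 (-82.6 on component 1) sits beside injury replicates 1 and 2, and injury replicate 3 (41.2) sits on the side of the repair libraries.

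With all 9 libraries, 0 of 13526 genes (0%) passed an adjusted p of 0.05 in edgeR's quasi-likelihood test with Benjamini-Hochberg adjustment, and the smallest adjusted p was 0.322. At an unadjusted p under 0.05, 1285 genes (9.50%) were higher after repair and 688 (5.09%) were lower. DESeq2 on the same libraries called 242 genes, 201 of them higher. Levels did not overlap between the groups for 113 genes higher after repair (0.835%) and 137 lower (1.01%). The median difference over all genes was 0.02, with 6995 genes (51.7%) above 0. Without repair replicate 4 and injury replicate 3, 4556 of 13662 genes were called by edgeR, 2328 higher (17%) and 2228 lower (16.3%). The shares in this paragraph are the background for the counts of each gene group below, none of whose members passed the adjusted threshold with all 9 libraries.

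Some genes separated the groups by label in every library, repair replicate 4 and injury replicate 3 included. They were few, 0.835% of all genes tested being higher after repair and 1.01% lower. How many genes would separate so few libraries by chance was not tested. The genes named below were picked on these same values, so their separation supports nothing. KCNN3, which encodes a small-conductance calcium-activated potassium channel that appears in denervated muscle, had the smallest p. It stood at 108, 121, 101, 40.4 and 57.2 CPM after repair and at 24.9, 28.3, 27.8 and 29.7 CPM after injury only. All 5 repair libraries lay above all 4 injury libraries, with replicate 4 the nearest to them, and the difference was 1.63 (SE 0.28), or 1.74 without the pair. ABCC5, a transporter that exports cyclic nucleotides, had 320, 250, 332, 81.2 and 162 CPM after repair against 34.5, 23.7, 52.7 and 47.6 CPM, a difference of 2.53 (SE 0.50). PDE4B, a phosphodiesterase that breaks down cyclic AMP, had 41.6, 36.7, 26.8, 33.6 and 29.7 CPM after repair against 17.5, 13.6, 17.1 and 17.2 CPM, a difference of 1.04 (SE 0.20). In PDE4B repair replicate 4 lay in the middle of its own group.

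The immediate early gene IER2 was at 7.19, 11.8, 11, 6.75 and 15.2 CPM after repair and at 3.84, 2.62, 3.55 and 4.74 CPM after injury only (1.49, SE 0.28). CYR61 encodes a secreted matrix protein induced by stretch and serum, and its levels were 74.4, 225, 224, 60.0 and 214 CPM against 28.1, 33.8, 33.7 and 34.6 CPM (2.29, SE 0.50). The injury libraries were close together in both genes, and the lowest repair library was replicate 4. Further genes among the 8 largest positive differences without overlap were AANAT, an enzyme of melatonin synthesis (5.45, SE 1.32), the glycosyltransferase GCNT2 (1.79, SE 0.41), the potassium channel subunit KCNK12 (1.73, SE 0.42) and MUM1L1 (1.63, SE 0.51). AANAT was at 2.58, 31.1, 23.8, 0.692 and 1.1 CPM after repair and at 0.229, 0.135, 0.111 and 0.603 CPM after injury only. Repair replicate 4 and injury replicate 4 each had 16 AANAT reads, so scaling alone set them apart.

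In the other direction, METTL21C, a lysine methyltransferase of skeletal muscle, had the largest negative difference of the genes without overlap. Its levels were 2.80, 26.3, 6.20, 2.98 and 10.1 CPM after repair and 93.2, 212, 330 and 171 CPM after injury only, a difference of -4.38 (SE 0.84), or -3.88 without the pair. Injury replicate 3 was the highest of all 9 libraries and repair replicate 4 was among the lowest, so for METTL21C each lay at the far side of its own group. The same was true of ANKRD2, a stretch-responsive ankyrin repeat protein of slow fibres, at 36.4, 91.7, 68.4, 13.4 and 52.4 CPM after repair and 202, 201, 460 and 190 CPM after injury only (-2.33, SE 0.54). Both genes also varied widely among the uninjured long-term libraries, scaled with all 34 libraries. METTL21C ran from 15.7 to 617 CPM there and ANKRD2 from 41.2 to 612 CPM. The uninjured long-term libraries had 12582302 to 14990918 total counts, fewer than any of the 9 libraries. Levels may therefore not be comparable between the terms. PKHD1 (-2.36, SE 0.60), the cell adhesion gene NFASC (-2.24, SE 0.74), the desmosomal gene DSP (-2.14, SE 0.81) and LGI1 (-1.89, SE 0.76) completed this set with the slow-fibre genes TNNC1 and MYOZ2.

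**Figure D2:**
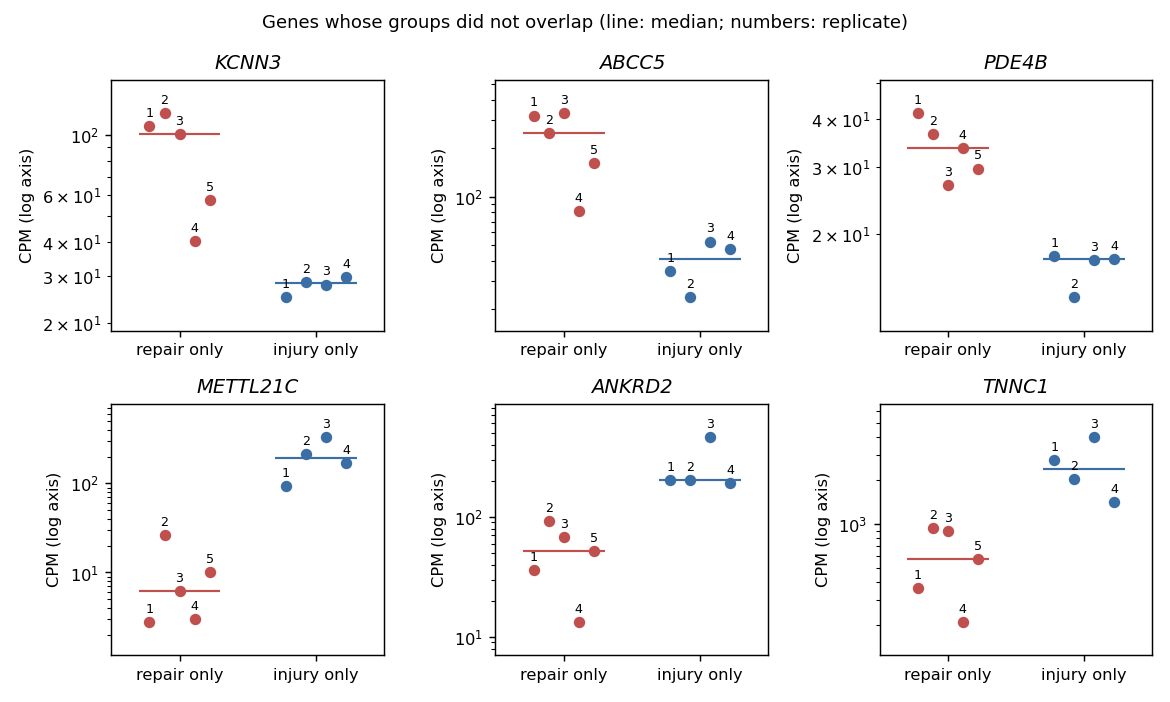
CPM on log axes of 6 genes in the 5 repair only and 4 injury only libraries, each point a library numbered by replicate and each line a group median. For KCNN3, ABCC5 and PDE4B all repair libraries lie above all injury libraries, and for METTL21C, ANKRD2 and TNNC1 all lie below, with injury replicate 3 the highest point in these last genes.

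Of the 12 genes with the smallest p, 5 overlapped between the groups. PLA2G4C, a cytosolic phospholipase, was at 4.77, 13.2, 15.0, 0.260 and 8.40 CPM after repair and at no more than 0.271 CPM after injury only. CXCL10, an interferon-induced chemokine that attracts T cells, was at 31.1, 24.8, 31.9, 1.73 and 15.9 CPM against 0.732, 0.813, 1.11 and 2.41 CPM (4.04, SE 0.91). In both genes repair replicate 4 was the library that fell within the injury range. TNFRSF21, a death receptor of the tumour necrosis factor family (1.5, SE 0.34), and TRO, which encodes the adhesion protein trophinin (1.09, SE 0.23), were also higher after repair, and YBX2, a nucleic acid binding protein of the Y-box family, was lower (-1.47, SE 0.33).

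Matrix genes had the largest median difference of the 37 gene lists. On average over these genes, repair replicate 4 lay below the other repair libraries and injury replicate 3 above the other injury libraries. All 24 fibrillar collagen and matrix genes tested were above 0, 14 of them with an unadjusted p under 0.05, and the median was 2.12. COL1A1, the main chain of type I collagen, stood at 6300, 2510, 2790, 84.5 and 31700 CPM after repair and at 144, 178, 1470 and 200 CPM after injury only. Repair replicate 4 was the lowest of the 9, and injury replicate 3 was the highest of its group by a wide margin. The difference of COL1A1 was 4.12 (SE 1.32), or 5.88 (SE 1.05) without the pair. Repair replicate 5 held the highest level, and without that library alone the COL1A1 difference was 2.53 and the median of the list was 1.02. Without injury replicate 3 the median was 3.26, and without the pair it was 3.56, with all 24 genes called.

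COL1A2, the partner chain of COL1A1, differed by 3.36 (SE 1.15). The glycoprotein TNC, found at sites of tissue remodelling, differed by 3.94, the proteoglycan VCAN by 3.28, the fibril-associated collagen COL12A1 by 3.00 and COL3A1 by 2.78. The lowest difference of the list was 0.86, for COL5A3. Of the enzymes that modify and cross-link collagen, 19 of 20 were above 0, 13 with an unadjusted p under 0.05, with a median of 1.38 (2.09 without the pair, 18 called, and 0.51 without repair replicate 5). LOX, the lysyl oxidase that starts the cross-link, was at 222, 92.1, 101, 4.76 and 669 CPM after repair and at 6.86, 6.14, 52.0 and 11.7 CPM after injury only (3.50, SE 1.10, and 4.96 without the pair). PLOD3, a lysyl hydroxylase, differed by 1.23 (SE 0.40) and FKBP10, a collagen chaperone, by 3.09.

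Matrix proteases and their inhibitors were higher for 22 of 25 genes, 11 with an unadjusted p under 0.05, with a median of 1.27. PLAU, the urokinase that activates plasminogen, was at 173, 44.2, 69.3, 12.7 and 166 CPM after repair and at 14.6, 15.2, 29.9 and 19.2 CPM after injury only (2.24, SE 0.61). Its receptor PLAUR differed by 5.45 (SE 1.61), a value that was 2.73 without repair replicate 5, whose level was 121 CPM. The metalloprotease ADAM12 differed by 4.38, and the inhibitor TIMP1 by 3.37. TIMP4 was the single member with an unadjusted p under 0.05 in the other direction (-2.08), with injury replicate 3 at 25.3 CPM and injury replicates 1, 2 and 4 at 2.88, 2.66 and 8.96 CPM. Without the pair the median was 2.09, with 19 genes called higher and 1 lower. The 1 called lower was ADAM8 (-0.88), whereas TIMP4, at -1.12, was not called.

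**Figure D3:**
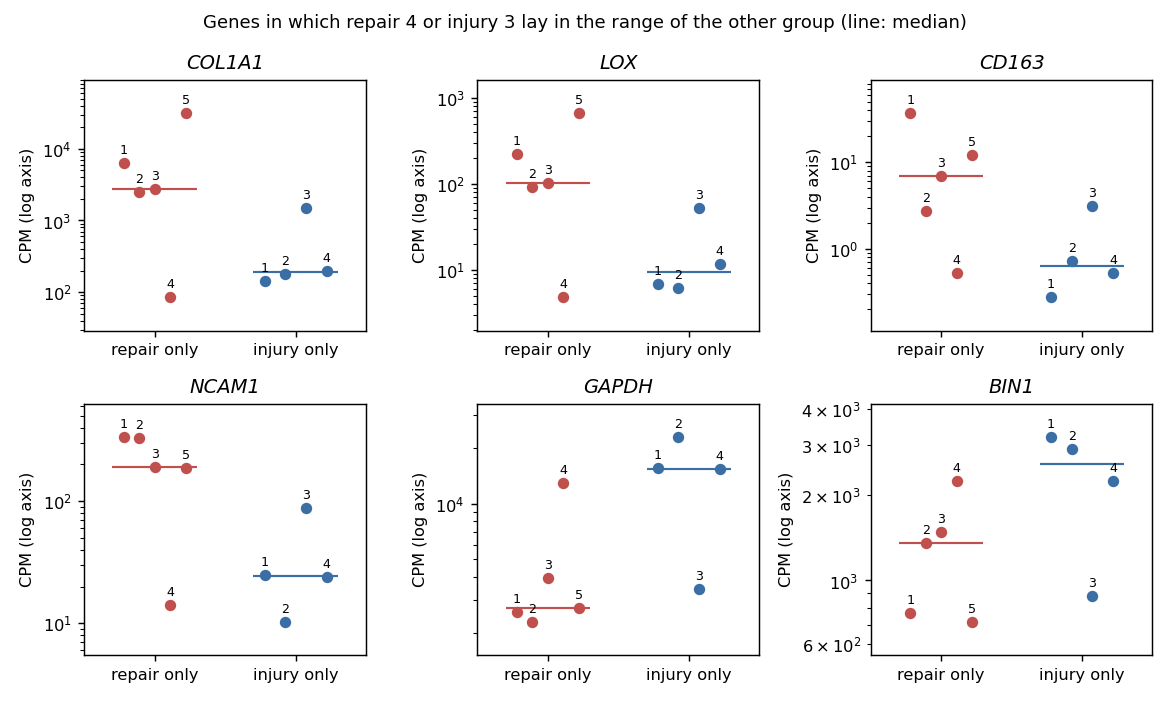
CPM on log axes of 6 genes in which repair replicate 4 or injury replicate 3 lay in the range of the other group, drawn as points numbered by replicate with group medians as lines. In COL1A1 and LOX repair replicate 4 lies below all injury libraries, and in CD163 and NCAM1 it lies among them. Injury replicate 3 lies above the rest of its group in each of these genes. Only the low value of repair replicate 4 brings it into the repair range in COL1A1, LOX and NCAM1. In GAPDH and BIN1 repair replicate 4 lies above the rest of its group and injury replicate 3 below the rest of its own.

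Basement membrane genes differed less, with 13 of 15 above 0, 3 with an unadjusted p under 0.05 and a median of 0.51. The median was 0.23 without repair replicate 5, 0.87 without injury replicate 3 and 1.10 without the pair, when all 15 were above 0 and 9 were called. COL4A3 and COL4A5, chains of type IV collagen, did not overlap between the groups. COL4A5 was at 6.71, 7.71, 8.24, 5.54 and 9.05 CPM after repair and at 5.03, 4.29, 3.94 and 5.01 CPM after injury only, a difference of 0.71 (SE 0.21), and COL4A3 differed by 1.30 (SE 0.35). In the TGF-beta, activin and myostatin list 19 of 26 genes were above 0 with a median of 0.21, 4 higher and 1 lower at an unadjusted p under 0.05 (0.13 without repair replicate 5, and 0.27 without the pair, 10 called higher and 2 lower). LTBP1, which holds latent TGF-beta in the matrix, was at 121, 133, 95.9, 9.99 and 168 CPM after repair and at 16.6, 12.8, 49.5 and 13 CPM after injury only (2.20, SE 0.63, and 3.12 without the pair). GDF11 was higher by 0.81 (SE 0.32). MSTN, which encodes myostatin, the inhibitor of muscle growth, was at 1.47, 5.83, 19.6, 21.5 and 4.22 CPM after repair and at 55, 75.7, 2.16 and 18.9 CPM after injury only (-1.85, SE 0.86), with injury replicate 3 the lowest of its group.

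Markers of fibro-adipogenic progenitors and fibroblasts were above 0 for 16 of 19 genes, 5 higher and 1 lower at an unadjusted p under 0.05, with a median of 0.91 (0.60 without repair replicate 5, 1.60 without injury replicate 3, and 1.85 without the pair, 14 called higher). LUM, a small proteoglycan that shapes collagen fibrils, was at 1490, 509, 583, 48.1 and 1470 CPM after repair and at 43.1, 74.6, 417 and 79.7 CPM after injury only (2.42, SE 0.88). HIC1, a transcription factor of quiescent mesenchymal progenitors, differed by 1.12 (SE 0.44), and the receptor PDGFRA by 1.17. CLEC3B was lower (-0.85). The summed level of this list was 1160 to 8420 CPM after repair and 1100 to 5320 CPM after injury only, so the groups overlapped.

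Adipocyte genes went the other way. All 14 tested were below 0, 6 with an unadjusted p under 0.05, with a median of -1.63 (-1.25 without the pair, 1 called lower). The list's PLIN1, PLIN4, CEBPA, CFD, SCD, FASN, PNPLA2 and AGPAT2 were not in the data under these symbols. The summed level of the 15 adipocyte genes in the data was 604 to 2330 CPM after repair and 2980 to 4950 CPM after injury only. The mean log2 CPM of those tested overlapped, however (6.09 in repair replicate 2 against 5.90 and 5.77 in injury replicates 1 and 2), and 0 members were without overlap. GPD1, a glycerol phosphate dehydrogenase that muscle also makes, took much of the sum, at 1480 CPM in repair replicate 4 and 1660, 1630 and 1340 CPM in injury replicates 1, 2 and 4, against 258 CPM in injury replicate 3. LIPE, the hormone-sensitive lipase, was at 8.61, 30.5, 30.1, 24.1 and 9.26 CPM after repair and at 25.6, 24.5, 126 and 87.0 CPM after injury only (-1.68, SE 0.62), so the groups overlapped and injury replicates 3 and 4 were high. CD36, a fatty acid transporter that muscle fibres also carry, differed by -1.29 (SE 0.44), the adipocyte regulator PPARG by -1.70 and the adipokine ADIPOQ by -0.95.

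Tendon cell genes were above 0 for 8 of 11, 1 of them at an unadjusted p under 0.05, and the median was 0.52. It was 0.27 without injury replicate 1 and 1.75 without injury replicate 3. Without the pair it was 2.01, when all 11 were above 0 and 5 were called. The gene at an unadjusted p under 0.05 was PRG4, which encodes the lubricant lubricin (2.32, SE 0.83). EGR2 differed by 1.52 (SE 0.76), whereas the tendon membrane gene TNMD was at the low end of the list (-1.19, SE 1.38, and 2.77 without the pair). Cartilage and bone genes were above 0 for 15 of 16, 5 with an unadjusted p under 0.05, with a median of 1.32. It was 0.84 without repair replicate 1, 2.36 without injury replicate 3 and 2.60 without the pair, when 13 were above 0 and 7 were called. RUNX2, a regulator of bone formation, was at 16.8, 7.03, 10.1, 1.82 and 94.7 CPM after repair and at 1.10, 1.08, 6.05 and 1.96 CPM after injury only (3.34, SE 1.06, and 1.77 without repair replicate 5). SOX9, a regulator of cartilage, differed by 1.92 (SE 0.63). The bone genes BGLAP and DMP1 had 0 reads in all 9 libraries.

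Slow-fibre and fast-fibre genes differed in how the libraries fell. All 13 slow-fibre genes tested were below 0, 7 with an unadjusted p under 0.05 and 5 without overlap, with a median of -1.69. The 5 were ANKRD2, MYOZ2, TNNI1, TNNC1 and TPM3. MYH7, also on the list, was not in the data under this symbol. TNNC1, slow troponin C, was at 363, 931, 897, 212 and 571 CPM after repair and at 2760, 2050, 3960 and 1420 CPM after injury only (-2.10, SE 0.63). MYOZ2, a Z-disc protein of slow fibres, was at 76.0, 218, 168, 38.0 and 81.6 CPM against 396, 396, 709 and 254 CPM (-1.92, SE 0.52). Among the uninjured long-term libraries, scaled with all 34 libraries, TNNC1 ran from 725 to 6570 CPM and MYOZ2 from 103 to 1240 CPM. In both genes repair replicate 4 was the lowest and injury replicate 3 the highest of the 9 libraries. Without the pair the list's median was therefore nearer 0, at -1.15, with 3 genes called lower.

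All 14 fast-fibre genes tested were also below 0, with a median of -1.01, but none had an unadjusted p under 0.05 with all 9 libraries. MYH2, TNNT3, TNNI2 and TNNC2, also on the list, were not in the data under these symbols. MYH4, the fast IIb myosin heavy chain, was at 65.2, 327, 2130, 25300 and 262 CPM after repair and at 20900, 74900, 1660 and 36900 CPM after injury only. Here repair replicate 4 lay with the injury libraries and injury replicate 3 with the repair libraries, and the difference was -2.58 (SE 1.43), or -6.06 without the pair. TPM1, an alpha-tropomyosin (-1.16, SE 0.54), and MYLK2, the skeletal myosin light chain kinase (-1.39, SE 0.67), crossed in the same libraries. The list's median was -0.78 without injury replicate 2, -1.69 without repair replicate 4 and -2.10 without the pair, with 13 genes called lower. Among the muscle identity genes, 10 of 12 were below 0, with a list median of -0.68. The titin cap gene TCAP (-1.15, SE 0.43) and the caveolin CAV3 (-0.98, SE 0.44) had an unadjusted p under 0.05. This median was -0.48 without repair replicate 5, -1.04 without repair replicate 4 and -1.23 without the pair, with 6 called lower. The intermediate filament gene DES differed by 0.01 (SE 0.32).

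**Figure D4:**
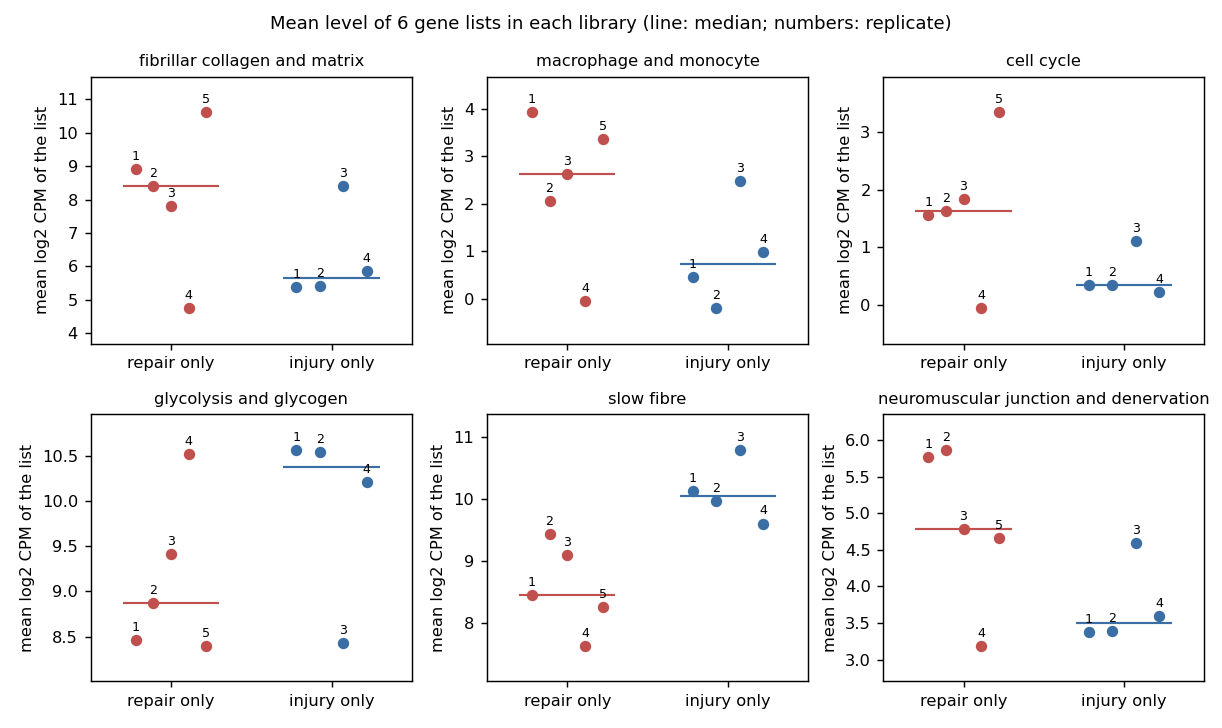
Mean log2 CPM of the genes of 6 lists in each of the 9 libraries, as points numbered by replicate with group medians as lines. Repair replicate 4 lies within the range of the injury libraries for macrophage and glycolysis genes. For matrix genes, cell cycle genes, and neuromuscular junction and denervation genes it lies below all 4 injury libraries. In these last lists injury replicate 3 is the highest of its group. For slow-fibre genes, by contrast, all 5 repair libraries lie below all 4 injury libraries.

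Calcium handling and excitation-contraction coupling genes were below 0 for 17 of 18, none with an unadjusted p under 0.05, with a median of -0.48. It was -0.33 without repair replicate 5, -0.93 without repair replicate 4 and -1.19 without the pair, with 13 called lower. BIN1, which shapes the transverse tubule, was at 770, 1350, 1480, 2240 and 716 CPM after repair and at 3190, 2900, 885 and 2240 CPM after injury only (-0.81, SE 0.40). TRDN, which anchors calsequestrin to the calcium release channel, differed by -0.72 (SE 0.34). Glycolysis and glycogen genes were below 0 for 24 of 27, with a median of -0.97. It was -0.74 without injury replicate 2, -1.70 without repair replicate 4 and -2.15 without the pair, with 22 called lower. GAPDH was at 2580, 2300, 3980, 12900 and 2720 CPM after repair and at 15600, 22800, 3440 and 15300 CPM after injury only (-1.55, SE 0.60). The genome can hold near-identical copies of GAPDH, so its level is uncertain. Scaled with all 34 libraries, its median was 208 CPM in the uninjured long-term libraries and 14400 CPM in the injury libraries. The cause was not tested. HK2, the hexokinase that traps glucose in the cell, went the other way (0.92, SE 0.32).

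Mitochondrial genes were lower by smaller amounts. All 33 oxidative phosphorylation genes tested were below 0, from -0.98 (COX7A1) to -0.38 (NDUFA9), 6 with an unadjusted p under 0.05. Their median was -0.57. It was -0.46 without injury replicate 1, -0.87 without repair replicate 4 and -1.09 without the pair, with 32 called lower. UQCRQ, a subunit of complex III, was at 189, 271, 394, 520 and 214 CPM after repair and at 746, 538, 371 and 618 CPM after injury only (-0.84, SE 0.33). COX6C, a subunit of cytochrome c oxidase, differed by -0.88 (SE 0.35). Genes of the citric acid cycle and of fatty acid oxidation were below 0 for 30 of 32, 6 with an unadjusted p under 0.05, with a median of -0.54 (-0.85 without the pair, 22 called lower). FABP3, which carries fatty acids inside the fibre, did not overlap between the groups: 49.1, 64.4, 88.1, 137 and 35.8 CPM after repair against 248, 257, 177 and 157 CPM (-1.48, SE 0.51). HADH, an enzyme of beta-oxidation, differed by -0.67 (SE 0.23). Regulators of mitochondrial biogenesis had a median of -0.29, which ran from -0.50 without injury replicate 3 to -0.15 without injury replicate 1 and was -0.69 without the pair (1 called higher, 6 lower). NFE2L2, the antioxidant regulator, was higher by 0.34 (SE 0.15), NRF1 was at -0.39 (SE 0.21), and the coactivator PPARGC1A differed by -0.02 (SE 0.45).

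Genes of the neuromuscular junction and denervation response were above 0 for 13 of 19, 11 of them with an unadjusted p under 0.05 and none lower, with a median of 1.25 (1.41 without the pair, 12 called higher). CHRNB1, a subunit of the muscle acetylcholine receptor, was at 97.4, 161, 113, 44.6 and 56.4 CPM after repair and at 25.9, 34.5, 43.5 and 55.2 CPM after injury only (1.25, SE 0.37). Only the highest injury library, replicate 4, reached into the range of the repair libraries. The subunits CHRNA1 (1.69), CHRND (2.85) and CHRNE (1.47), the receptor tyrosine kinase MUSK (2.10), the transcription factor RUNX1 (3.04) and the histone deacetylase HDAC4 (1.00) were higher as well. CHRNG, the fetal receptor subunit, was at 187, 410, 45.0, 6.45 and 67.4 CPM after repair and at 1.88, 3.21, 97.8 and 5.87 CPM after injury only (2.39, SE 1.31, and 5.53 without the pair). The junctional anchor RAPSN (-0.12) and the collagen tail gene COLQ (-0.69) did not have a positive difference.

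NCAM1, an adhesion molecule that spreads over denervated fibres and is also made by Schwann cells, was at 333, 328, 191, 14.2 and 186 CPM after repair and at 25.0, 10.3, 88.2 and 24.1 CPM after injury only (2.51, SE 0.80). Most other Schwann cell and myelin genes did not share its sign: 15 of the 18 genes were below 0, 4 with an unadjusted p under 0.05, with a median of -0.79 (-0.26 without injury replicate 3, and -0.43 without the pair, when 8 were above 0). The amount of nerve in each sample was not tested.

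Myogenic regulators and fusion genes showed no common direction, with 9 of 15 above 0 and a median of 0.07, which was below 0 without repair replicate 2, repair replicate 3 or injury replicate 3 and without the pair. MET, the receptor for hepatocyte growth factor on satellite cells, differed by 0.67 (SE 0.23). The satellite cell gene PAX7 differed by -0.29 (SE 0.46). Developmental sarcomere genes, 0 of 8 of which had an unadjusted p under 0.05, had a median of 0.50 that ran from -0.54 without repair replicate 2 to 2.93 without injury replicate 3 and was 3.22 without the pair, with 5 called higher. NES, an intermediate filament of young fibres, differed by 1.24 (SE 0.73).

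In the muscle stress list MUSTN1 was higher (1.37, SE 0.50), as was ANKRD1 (2.24, SE 0.88), and ANKRD2 was lower, while the median of the 14 genes was -0.29 (-0.47 without repair replicate 2, -0.11 without repair replicate 5 and -0.24 without the pair). The muscle ubiquitin ligases FBXO32 (0.11, SE 0.52) and TRIM63 (0.11, SE 0.32) did not differ beyond the spread between libraries. The atrophy and autophagy list, which holds both ligases, had a median of -0.13 over 21 genes (-0.25 without injury replicate 3, -0.06 without injury replicate 1 and -0.43 without the pair, 2 called higher and 4 lower), and DDIT4, an inhibitor of mTOR signalling, was its single member with an unadjusted p under 0.05 (1.40, SE 0.60, and 0.35 without repair replicate 5). FBXO30, another ligase, differed by 0.34 (SE 0.17). Proteasome subunits were below 0 for 25 of 26, 1 with an unadjusted p under 0.05, with a median of -0.20. It was -0.13 without injury replicate 2, -0.42 without injury replicate 3 and -0.47 without the pair, with 14 called lower. The gene at an unadjusted p under 0.05 was PSMD12 (-0.41, SE 0.17), and the next smallest p was that of PSMB6 (-0.44, SE 0.21).

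Macrophage and monocyte markers were above 0 for 17 of 18, 7 with an unadjusted p under 0.05, with a median of 1.72 (2.73 without the pair, 14 called higher). CD163, the haemoglobin scavenger receptor of tissue macrophages, was at 37.1, 2.73, 6.90, 0.519 and 12 CPM after repair and at 0.275, 0.723, 3.11 and 0.527 CPM after injury only (3.32, SE 1.06). FCGR1A, a high-affinity antibody receptor, differed by 3.25 (SE 1.26), CD68 by 1.88 and CD14 by 1.87. The summed level of the list was 29.7 to 520 CPM after repair and 29.7 to 203 CPM after injury only. Lipid-handling and alternative macrophage genes were above 0 for 20 of 22, 6 higher and 1 lower at an unadjusted p under 0.05, with a median of 0.96. It was 0.75 without injury replicate 2, 1.65 without injury replicate 3 and 1.92 without the pair, with 12 called higher. ARG1, the arginase of alternatively activated macrophages, rested on repair replicate 1: it was at 8.95, 0.136, 0.279, 0.0865 and 1.2 CPM after repair, and its difference of 4.30 (SE 1.27) was 1.94 without that library.

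Neutrophil and mast cell genes were above 0 for 10 of 11 with a median of 1.57, at very low levels. The median was 1.19 without repair replicate 5, 2.50 without injury replicate 3 and 2.75 without the pair, with 6 called higher. The chemokine receptor CXCR2 was at 0.932, 2.67, 0.587, 0 and 0.391 CPM after repair, and 3 of 4 injury libraries had no read. CXCR1 differed by 3.95 (SE 1.2) and was at no more than 0.166 CPM in the injury libraries. The neutrophil collagenase gene MMP8 had 0 reads in all 9 libraries. Lymphocyte genes were above 0 for 14 of 15 with a median of 0.85 and 0 genes at an unadjusted p under 0.05. CD4 was at 2.06, 0.463, 0.140, 0.0865 and 0.339 CPM after repair (2.63, SE 1.26), and without repair replicate 1 the median of the list was 0.21, against 1.29 without injury replicate 3 and 1.57 without the pair, with 4 called higher. CD27, a costimulatory receptor, differed by 1.64 (SE 0.91).

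Interferon response genes were above 0 for 19 of 20, 4 with an unadjusted p under 0.05, with a median of 0.95 that was 0.30 without repair replicate 1 and 1.13 without the pair, with 3 called higher. Besides CXCL10, IFIT5 differed by 2.45 (SE 0.85), at 25.0, 3.05, 4.33, 1.17 and 14.5 CPM after repair and 1.10, 1.31, 2.64 and 1.92 CPM after injury only. Cytokine and chemokine genes were above 0 for 11 of 12, 4 with an unadjusted p under 0.05, with a median of 1.52 (2.19 without the pair, 8 called higher). LIF, a cytokine of the interleukin 6 family, was at 5.40, 1.91, 1.59, 0.173 and 21.0 CPM after repair and at 0.275, 0.181, 0.527 and 0.603 CPM after injury only (3.89, SE 1.06). CXCL8, a neutrophil attractant, differed by 3.31 (SE 1.15) at levels of no more than 0.682 CPM.

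Cell cycle genes were above 0 for 29 of 32, 18 with an unadjusted p under 0.05 and none lower, with a median of 1.64 (1.86 without the pair, 20 called higher, and 0.88 without repair replicate 5). RRM2, a subunit of ribonucleotide reductase made in S phase, was at 1.71, 2.13, 1.84, 0.692 and 10.4 CPM after repair and at 0.366, 0.361, 0.888 and 0.301 CPM after injury only (2.77, SE 0.73). MKI67, the Ki-67 antigen of dividing cells, differed by 2.89, and the mitotic kinase gene BUB1 by 3.64. MCM2 and CDC6, which license DNA replication, did not overlap between the groups, whereas the replication clamp PCNA differed by 0.20 (SE 0.17). CDKN1A, an inhibitor of the cell cycle, was higher too: 127, 256, 204, 38.8 and 110 CPM after repair against 18.7, 12.8, 60.4 and 46.3 CPM (2.09, SE 0.58).

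Immediate early genes were above 0 for 15 of 19, 6 with an unadjusted p under 0.05, with a median of 0.93 (0.61 without repair replicate 3, and 1.09 without the pair, 4 called higher). FOSL2, a Fos-family subunit of AP-1, was at 57.9, 35.1, 39.4, 19.6 and 128 CPM after repair and at 12.3, 10.1, 22.1 and 19.7 CPM after injury only (1.80, SE 0.46). FOS itself differed by 1.60 (SE 0.67). Unfolded protein response genes were above 0 for 16 of 20, 7 higher and 1 lower at an unadjusted p under 0.05, with a median of 0.58 (0.25 without repair replicate 5, and 0.63 without the pair, 7 called higher and 2 lower). EDEM1, which hands misfolded glycoproteins to degradation, was at 40.0, 43.1, 54.6, 23.0 and 65.4 CPM after repair and at 25.1, 21.7, 19.1 and 22.7 CPM after injury only (1.03, SE 0.26), and its partner in that pathway SEL1L differed by 0.61 (SE 0.19). The stress regulator ATF4 was lower (-0.68, SE 0.30).

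Core clock genes were below 0 for 16 of 18, 4 with an unadjusted p under 0.05, with a median of -0.27. It was -0.23 without injury replicate 2, -0.49 without injury replicate 3 and -0.62 without the pair, with 4 called lower. NR1D1, a repressor in the clock, was at 79.4, 121, 129, 74.0 and 89.9 CPM after repair and at 334, 325, 112 and 244 CPM after injury only (-1.36, SE 0.35). Here injury replicate 3 again lay with the repair libraries, while repair replicate 4 lay with its own group. ARNTL, the activator of the clock, differed by -0.83 (SE 0.27). PER3 had the highest difference of the list and went the other way (1.74), though 0 members were higher at an unadjusted p under 0.05. The hour at which each muscle was taken is not in the labels, and its part in these values was not tested.

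Markers of blood vessels and blood had medians near 0. Endothelial genes had a median of -0.05 with 8 of 18 above 0 and summed to 734 to 1250 CPM after repair and 781 to 1290 CPM after injury only, and the median was 0.22 without injury replicate 3 and 0.21 without the pair. PLVAP, a protein of vessel fenestrae (1.16, SE 0.48), had an unadjusted p under 0.05, and VWF, the von Willebrand factor, was at 0.87 (SE 0.45). Pericyte and smooth muscle genes had a median of 0.13, which ran from -0.05 without repair replicate 5 to 0.39 without injury replicate 3 and was 0.52 without the pair. TAGLN differed by 2.11 (SE 0.93), but by 0.13 without repair replicate 5, whose level was 587 CPM, and LMOD1 differed by -1.73 (SE 0.61). The 8 erythroid genes in the data summed to 110 to 477 CPM after repair and 185 to 284 CPM after injury only. The 6 tested had a median of -0.01, which took either sign as single libraries were left out and was -0.28 without the pair. The haem-related gene SLC25A37 (-0.09, SE 0.18) and the globin HBQ1 (-0.22, SE 0.49) did not differ beyond the spread between libraries.

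**Figure D5:**
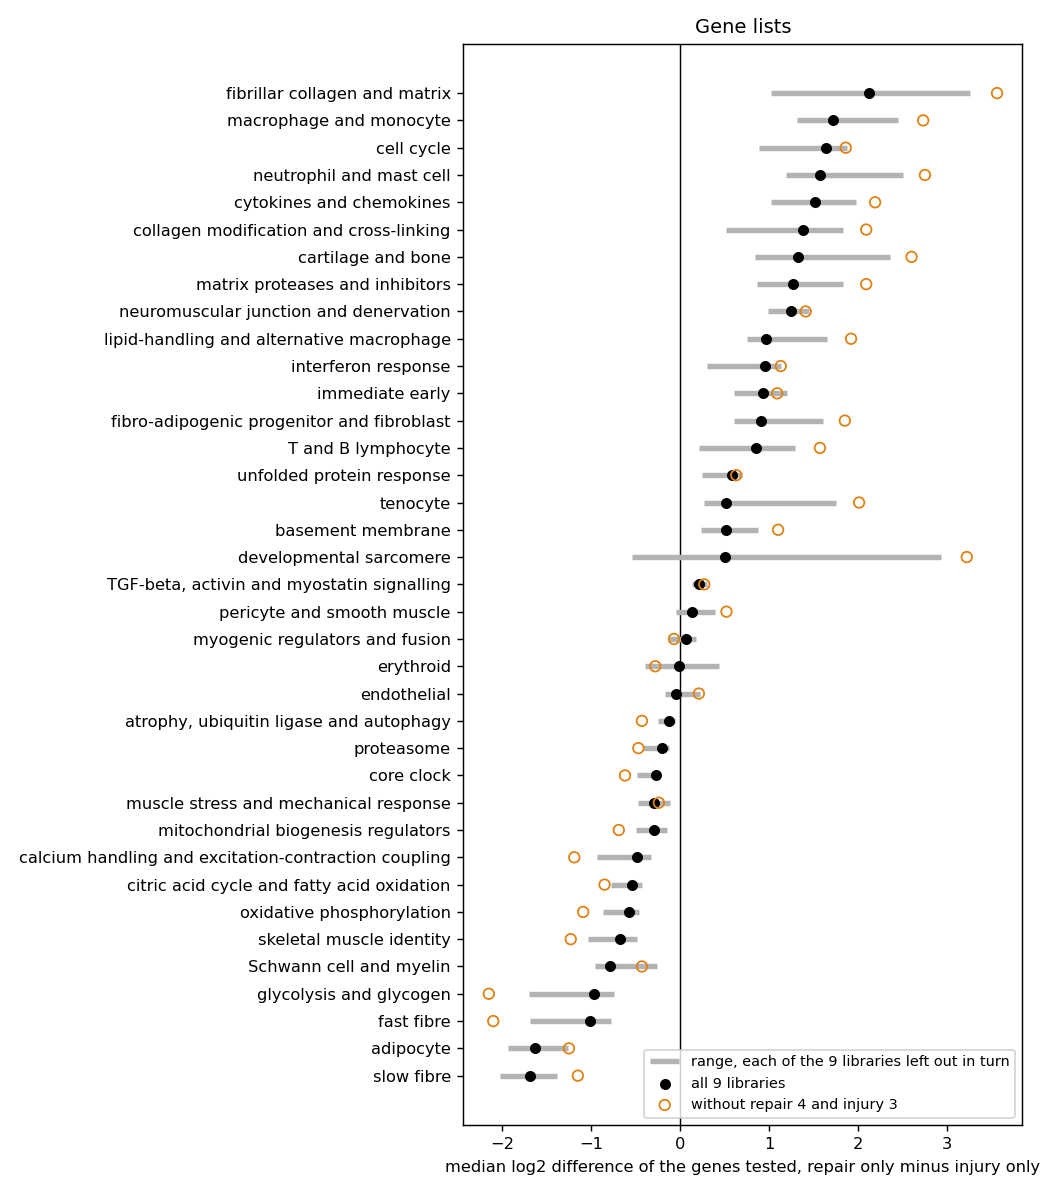
Median log2 difference, repair only minus injury only, of the genes tested in each of 37 lists: black points for all 9 libraries, grey bars for the range as each library is left out in turn, and open orange circles for the fit without repair replicate 4 and injury replicate 3. Fibrillar collagen and matrix is highest (2.12) and slow fibre lowest (-1.69). The bars of the developmental sarcomere, myogenic, endothelial, pericyte and erythroid lists cross 0.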

How the data were processed

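The authors deposited a file of unnormalized counts, whole numbers of reads per gene, for each library. Per the labels, a commercial laboratory extracted the RNA and made the libraries. The submitters' processing notes name STAR, edgeR and OryCun2.0. No source used here gives versions, annotation or use of strand, so genes that overlap or have close copies are uncertain. Of the 18210 entries in a file, 26 whose names had become dates in 1 file were dropped (at most 0.163% of counts). Adding up 15 entries that shared 7 symbols left 18176 genes. Of 3500 LOC identifiers, 578 received a symbol from a RefSeq table of the assembly mOryCun1.1, used for names alone. There were 0 pairs of identical libraries within a group, and chi-square per degree of freedom between pairs was at least 96.51.

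The test was edgeR 4.0.16 under R 4.3.3 (TMM, filter by expression, robust quasi-likelihood, 2-sided, Benjamini-Hochberg threshold 0.05). The 5 short-term gel libraries entered the fit to share the estimate of the spread. Log2 CPM used a prior count of 2. DESeq2 1.42.0, limma 3.58.1, other scalings, filters, sample sets and left-out libraries were the alternatives. The fit was tested on simulated data. No simulated library was placed with the other group, so that test does not bear on repair replicate 4 and injury replicate 3.

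Named genes were the 12 with the smallest p, the 8 largest differences in each direction among genes without overlap at an unadjusted p under 0.05, and the 2 members of each of 37 lists with the smallest p. The first 2 sets needed a symbol and an average log2 CPM of 1 or more. Other members named are ends of a list or were picked after their values were seen. The members and lists were chosen with earlier results of these data known. Some genes that this rule names are not reported here.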

Additional observations from a re-analysis of the deposited data

Results flagged for a closer look

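In 20 of 254 groups of 4 or 5 libraries, 1 library stood far from the others: the gap from the highest or lowest library to its nearest neighbour took more of the group's range on the log2 CPM scale than Dixon's 95% critical value allows. Chance flags about 1 group in 20, and the genes are not independent of each other. Injury replicate 3 was the library in 11 cases and repair replicate 4 in 6.

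Injury replicate 3 was the highest of its group for TNFRSF21 (gap over range 0.877), ANKRD2 (0.927), COL1A1 (0.857), COL1A2 (0.871), VWF (0.960), RRM2 (0.830) and CXCR2 (1.0, where its level of 0.0555 CPM is 2 reads and the other injury libraries had 0). It was also the highest for the mean of the fibrillar collagen and matrix genes (0.840) and the cell cycle genes (0.855), and the lowest for the glycolysis and glycogen genes (0.832) and the core clock genes (0.838). Repair replicate 4 was the lowest of its group for CXCL10 (0.758), LTBP1 (0.801), SOX9 (0.816), NCAM1 (0.816) and SEL1L (0.711), and for the mean of the basement membrane genes (0.770). In ANKRD2 the distant value of injury replicate 3 lay away from the repair group, not towards it.

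The remaining cases were PDE4B, where injury replicate 2 was the lowest (0.901), CYR61, where injury replicate 1 was the lowest (0.874), and the globin HBQ1, where repair replicate 1 was the highest (0.760).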

How the results depend on the processing

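The count of called genes was 0 with all 9 libraries under edgeR with DESeq2 size factors, without a filter on low counts, without erythroid genes and with only the 9 libraries in the fit, but DESeq2 called 242, limma voom with sample quality weights 4703, and edgeR with all 34 libraries 626. As single libraries were left out the count ran from 0 to 34 (34 without repair replicate 4), and without repair replicate 4 and injury replicate 3 it was 4556. The 1973 genes at an unadjusted p under 0.05 became 6348 under limma voom, 1240 with only the 9 libraries, 3236 with all 34 libraries and 6196 without the pair, and ran from 1057 (without injury replicate 1) to 4203 (without repair replicate 4) as single libraries were left out. Repair replicate 1 (1187), repair replicate 5 (1092), injury replicate 2 (1098), injury replicate 3 (4133) and injury replicate 4 (1244) each moved it by over 1.5 times.

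With the replicate number as a replicate block, 0 genes were called and 1156 had an unadjusted p under 0.05. Same-numbered repair and injury libraries did not deviate together (correlations of -0.359, -0.196, -0.202 and 0.140), and the numbers were not taken as a pairing. Repair replicate 4 and injury replicate 3 entered the group means used, so these correlations cannot show whether the numbers are a pairing.

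Of 1611 values of the 90 named genes under alternatives, 1607 kept their sign. SLC25A37 ran from -0.375 without the pair to 0.00399 without injury replicate 1, and HBQ1 from -0.856 without repair replicate 1 to 0.38 without injury replicate 3, with 0.17 under limma voom and 0.54 without the pair. The medians of 6 lists changed sign under at least 1 alternative: developmental sarcomere, myogenic, muscle stress, endothelial, pericyte and erythroid. The causes were not tested. Genes with few reads in the injury libraries, such as AANAT, CXCR2, PLA2G4C and CXCL8, have differences that depth limits.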
